A study of Dimocarpus longan with 9 samples.

Results

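Root and leaf of the longan cultivar “SJM” were compared gene by gene, to describe which genes were higher in the organ that takes up water and minerals and which in the organ that fixes carbon. The comparison used 2 of the 9 libraries of the series and all 30014 genes of its expression table. Of these, 24244 genes were above 0 in root or leaf, and 5770 were listed at 0 in both. With a single library for either organ and hence no replicate, every difference below describes 2 libraries and carries no test.

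Both libraries came from field-grown plants of this cultivar, also called sijimi, with no treatment. The root library was labelled root only, and the leaf library was made from mature leaf. How many plants were sampled, and at what age, is not stated in the sources at hand. Poly(A) RNA was sequenced as short cDNA fragments, and each gene's level was given as FPKM, the number of fragments scaled to the length of the gene's exons and to the size of the library. A gene is called higher in root or in leaf where log2((root + 1)/(leaf + 1)), in FPKM, was at least 1 in size, that is 2-fold with 1 FPKM added to both values. This scale understates the difference of genes with low FPKM. Positive differences mean higher in root.

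Roots grow from a tip meristem in which cells keep dividing, form lateral roots from inner cell layers, and take up water, nitrate and other ions. A mature leaf has largely stopped dividing and is given over to photosynthesis, gas exchange and the export of sugars. Transcription factors are proteins that set which genes are transcribed, mostly by binding DNA, and plants hold them in large types. The study typed 1611 longan genes as transcription factors by sequence, of which 1529 were in the table and 1288 were above 0 in root or leaf.

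The root library held 22205 genes above 0 FPKM and the leaf library 21267. Total FPKM was 1011820 in root and 884470 in leaf. The 10 highest genes took 9.30% of the total in root and 4.14% in leaf. No counts were given, so the depth of single values is unknown. Among 511 genes of low level, the commonest ratio of root over leaf was 1.45, but only 55 genes lay at it. If that ratio is the weight of 1 read, the root library was the shallower of the 2, and the part of depth in the counts of low genes was not tested. Marker genes fitted the leaf label only in part. The gene annotated as oxygen-evolving enhancer protein 2 of photosystem II, Dlo_000983.1, had 0.22 FPKM in root and 115 FPKM in leaf, but 123 FPKM in seed. Against that, the gene annotated as light-harvesting chlorophyll a/b binding protein 3, Dlo_012937.1, had only 0.44 FPKM in root and 1.5 FPKM in leaf, with 16.7 FPKM in seed. Magnesium chelatase subunit H, Dlo_023618.1, had 2.66 FPKM in root and 2.0 FPKM in leaf, so that 1 of these 3 genes was higher in leaf. All 4 C2C2-YABBY genes above 0 in either organ were higher in leaf. None of these 4 had its highest value in leaf, and the leaf sum of the type ranked 6 among the 9 tissues. In Arabidopsis this type marks the lateral organs of the shoot. The highest of them in leaf, Dlo_019359.1, had 2.24 FPKM in root and 33.7 FPKM in leaf. The single LFY gene, Dlo_005438.1, a gene of flower meristems, had 0.62 FPKM in root and was listed at 0 in leaf. Of the 9 GRF genes, named for growth-regulating factors, 8 were above 0 in root or leaf, and none exceeded the 6.0 FPKM of Dlo_000440.1 in leaf. The annotation used here holds no defining marker of root cells.

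Over all genes, 6021 were higher in root (24.8% of 24244) and 4402 were higher in leaf (18.2%), so 43.0% differed. The median difference was 0.05, and the middle 80% of genes lay between -1.64 and 2.58. With a 4-fold limit, 3334 genes were higher in root (13.8%) and 1827 in leaf (7.54%). Root exceeded leaf in number mainly among genes of low level. Among 7233 genes with a mean of the 2 organs above 1 and up to 10 FPKM, 35.2% were higher in root and 20.4% in leaf. Among 1908 genes with a mean above 100 FPKM, 25.3% were higher in root and 27.8% in leaf. Listed at 0 in leaf were 502 genes with 10 FPKM or more in root, and listed at 0 in root were 170 genes with 10 FPKM or more in leaf. The largest differences over the whole table belonged to genes with no annotation here. Dlo_023827.1 and Dlo_004754.1 had 3527 and 3438 FPKM in root, and both were listed at 0 in leaf. Dlo_002788.1 had 0.16 FPKM in root and 1259 FPKM in leaf, and Dlo_033088.1 had 1.59 FPKM in root and 1647 FPKM in leaf.

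Transcription factor genes differed more often than the table as a whole. Of 1288 genes, 429 were higher in root (33.3%) and 294 in leaf (22.8%), beside 24.8% and 18.2% of all genes. Their median difference was 0.23, beside 0.05 over all genes. The genes higher in root were the more numerous, but those higher in leaf stood at higher levels. Genes higher in root had a median of 15.4 FPKM in root, and genes higher in leaf a median of 54.0 FPKM in leaf. At 100 FPKM or more were 15 of the genes higher in root, in root, and 102 of the genes higher in leaf, in leaf. Over all genes the levels differed in the same direction but less, with medians of 17.8 FPKM in root for the genes higher there and 26.9 FPKM in leaf for the genes higher in leaf. Of these, 831 of 6021 reached 100 FPKM in root and 898 of 4402 in leaf. Summed over all transcription factor genes, the level was 36448 FPKM in root and 61010 FPKM in leaf, which is 3.60% of the total FPKM in root and 6.90% in leaf. Among the 9 tissues the root sum ranked 7 and the leaf sum ranked 2, after pericarp. Listed at 0 in leaf were 29 transcription factor genes with 10 FPKM or more in root, and listed at 0 in root were 13 with 10 FPKM or more in leaf. These 29 and 13 of 1288 stand beside 502 and 170 of 24244 genes over the whole table.

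**Figure D1:**
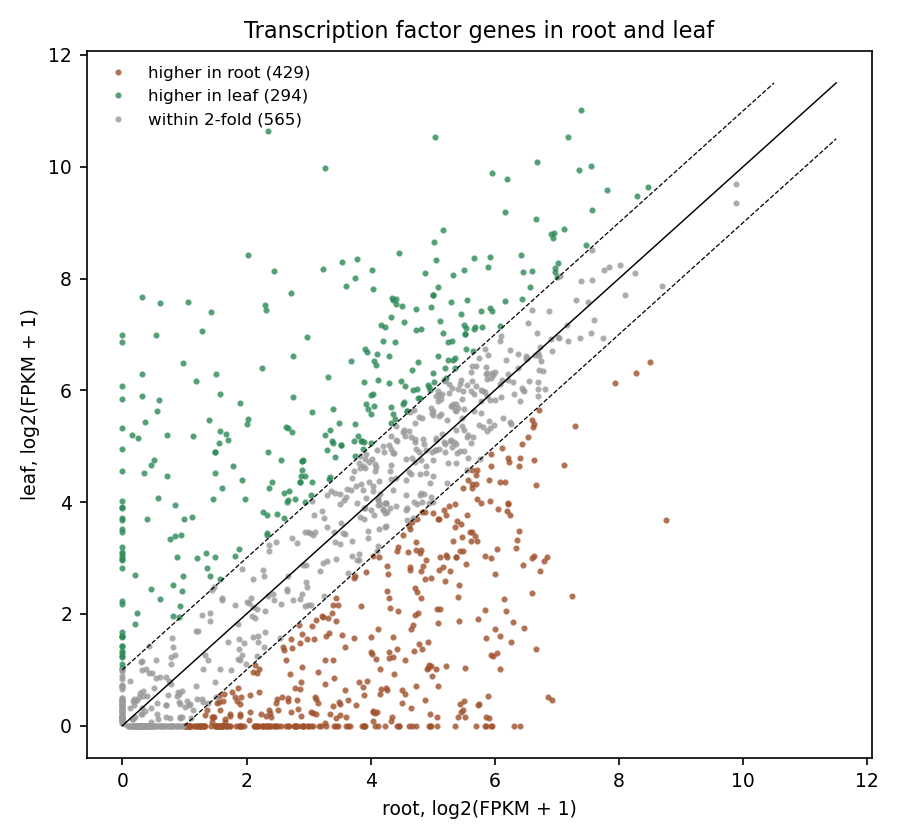
Level of each of the 1288 transcription factor genes above 0 FPKM in root or leaf, with root on the horizontal and leaf on the vertical axis, both as log2(FPKM + 1); the solid line marks equal levels and the dashed lines the 2-fold limit. The 294 genes higher in leaf reach further up the scale than the 429 genes higher in root, many of which lie on the axis where leaf is listed at 0.

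Among types with at least 10 genes, AP2, C2C2-Dof, LOB, HB, OFP and MYB had the highest median differences towards root. With 5 FPKM added, the medians of HB, MYB and OFP were 0.52, 0.30 and 0.24, and C2C2-GATA (0.37) and G2-like (0.32) stood above MYB and OFP. The C2C2-GATA median ran from -0.45 to 0.54 over the settings tried, so no direction is read from it. In the AP2 type, which in Arabidopsis includes the PLETHORA regulators of the root meristem, 8 of 13 genes were higher in root and 0 in leaf, with a median difference of 1.79. Its largest difference was that of Dlo_000444.1, with 52.2 FPKM in root and 0.29 FPKM in leaf. C2C2-Dof genes code for plant zinc finger factors, and 15 of 22 were higher in root and 2 in leaf (median 1.43). Dlo_000162.1 of this type had 67.0 FPKM in root and 1.03 FPKM in leaf, but its highest value was 236 FPKM in stem. Only Dlo_007387.1 and Dlo_033507.1 were higher in leaf in this type, the first listed at 0 in root with 6.76 FPKM in leaf.

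LOB proteins include factors needed for lateral root formation in Arabidopsis. Of 34 LOB genes, 19 were higher in root and 5 in leaf, with a median of 1.23. Dlo_032831.1 led with 30.2 FPKM in root and 0.16 FPKM in leaf, while its highest value of all tissues was 288 FPKM in flower bud. With 5 FPKM added in place of 1, 11 LOB genes were higher in root and 2 in leaf, and the median was 0.48. Homeobox (HB) genes, which include regulators of meristems and of cell fate, had 29 of 59 higher in root and 11 in leaf (median 0.98). Dlo_018056.1 of this type had the largest difference of all transcription factor genes towards root, 6.45, with 119.85 FPKM in root and 0.38 FPKM in leaf. In the OFP type, ovate family proteins first known from tomato fruit shape, 6 of 12 genes were higher in root and 0 in leaf, or 3 in root and 0 in leaf with 5 FPKM added. Its leading gene, Dlo_030940.1, had 50.8 FPKM in root and was listed at 0 in leaf, with at most 1.28 FPKM elsewhere. MYB genes, the type with the most genes above 0 here, had 43 of 96 higher in root and 16 in leaf (median 0.69). Of the 96, 36 had their highest value of all tissues in root, beside 288 of 1288 transcription factor genes and 4798 of 24244 genes.

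Towards leaf, the strongest lean was that of the Tify type, which includes the JAZ repressors of jasmonate signalling. Of 12 genes, 1 was higher in root and 9 in leaf, with a median difference of -1.71. Dlo_025200.1 had 1.69 FPKM in root and 168 FPKM in leaf, the largest difference of the type (-5.97). The exception was Dlo_013514.1, with 64.4 FPKM in root and 1.47 FPKM in leaf. Summed, Tify genes stood at 806 FPKM in root and 3442 FPKM in leaf, and leaf had the highest sum of the 9 tissues.

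WRKY proteins act largely in defence and stress responses. Of 54 WRKY genes, 14 were higher in root and 26 in leaf, so 74.1% differed, with a median of -0.91, or -0.40 with 5 FPKM added. The genes ran far apart in both directions. Dlo_030713.1 had 10.6 FPKM in root and 313 FPKM in leaf, and Dlo_027361.1 had 41.4 FPKM in root and 0.12 FPKM in leaf. Their sum was 1628 FPKM in root and 5642 FPKM in leaf. TCP factors act on cell proliferation and leaf shape in Arabidopsis. In this type 4 of 18 genes were higher in root and 8 in leaf (median -0.54, or -0.20 with 5 FPKM added). Dlo_022819.1 had 3.09 FPKM in root and 342 FPKM in leaf, and no other tissue exceeded 19.8 FPKM. MIKC genes, the MADS-box factors known for flower development, had 5 of 21 higher in root and 8 in leaf, or 2 in root and 7 in leaf with 5 FPKM added. Among them Dlo_009139.1 was listed at 0 in root with 126 FPKM in leaf, whereas Dlo_010081.1 had 56.6 FPKM in root, 0 in leaf and at most 0.45 FPKM in any other tissue. SBP genes, which act in the change from juvenile to adult growth, had 1 of 17 higher in root and 4 in leaf, or 0 in root and 3 in leaf with 5 FPKM added.

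**Figure D2:**
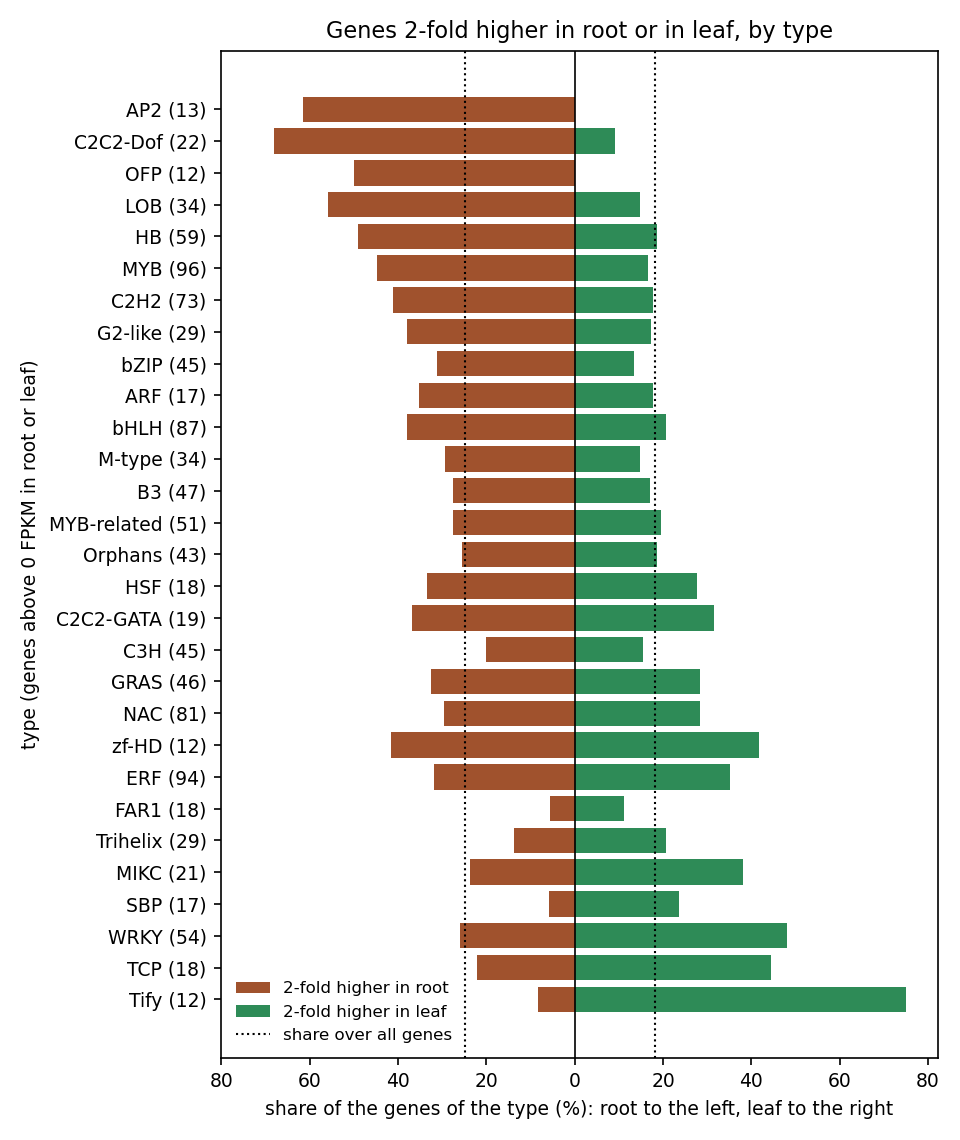
Share of the genes of each of the 29 types that was 2-fold higher in root (bars to the left, %) or in leaf (bars to the right, %), for types with at least 10 genes above 0 FPKM in root or leaf, whose number stands in brackets; dotted lines mark the shares over all genes, 24.8% in root and 18.2% in leaf. AP2, C2C2-Dof and OFP stand at the root end and Tify, TCP and WRKY at the leaf end.

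Of the 29 types, 20 had more genes higher in root, 8 had more higher in leaf, and zf-HD had 5 of 12 in each direction. Several large types split rather than leaned. ERF genes, named for their response to ethylene, had 30 of 94 higher in root and 33 in leaf, but 19 in root and 30 in leaf among genes with at least 5 FPKM in either organ, and 14 in root and 26 in leaf with 5 FPKM added. NAC genes had 24 of 81 higher in root and 23 in leaf, then 14 in root and 19 in leaf with the same filter, and 12 in root and 19 in leaf with 5 FPKM added. GRAS genes, which include the DELLA and SCARECROW proteins, had 15 of 46 higher in root and 13 in leaf. Their sums still favoured leaf, at 3212 FPKM in root and 9819 FPKM in leaf for ERF, 2123 FPKM in root and 4657 FPKM in leaf for NAC, and 1124 FPKM in root and 3030 FPKM in leaf for GRAS. The bHLH type had 33 of 87 higher in root and 18 in leaf, or 20 in root and 14 in leaf with 5 FPKM added, and C2H2 zinc finger genes had 30 of 73 higher in root and 13 in leaf. The bZIP type had 14 of 45 higher in root and 6 in leaf, and with 5 FPKM added 7 in root and 5 in leaf. The G2-like type had 11 of 29 higher in root and 5 in leaf, and with 5 FPKM added 6 in root and 4 in leaf. Fewest differences were found in the FAR1 type, known from phytochrome signalling, with 1 of 18 higher in root and 2 in leaf. C3H, Trihelix and SBP genes were also below the 43.0% of all genes that differed, at 35.6%, 34.5% and 29.4%.

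Types under 10 genes held 142 genes above 0 in root or leaf, of which 41 were higher in root and 29 in leaf. Over all genes the shares were 24.8% in root and 18.2% in leaf, and over all transcription factor genes 33.3% and 22.8%. The following were picked out after their values were seen. All 5 SRS genes, relatives of SHI in Arabidopsis, were higher in root, led by Dlo_027958.2 with 42.5 FPKM in root and 0.31 FPKM in leaf. In the CPP type, which includes TSO1 of Arabidopsis, a factor tied to cell division, 5 of 6 genes were higher in root and 1 in leaf. Their levels were low, from 2.16 to 10.3 FPKM in root. The C2C2-CO-like, EIL and CAMTA types leaned to leaf throughout or nearly so. All 3 CONSTANS-like (C2C2-CO-like) genes were higher in leaf, among them Dlo_010808.1 with 0.25 FPKM in root and 204 FPKM in leaf. The 3 EIL genes, transcription factors of ethylene signalling, were higher in leaf, with Dlo_014864.2 at 188 FPKM in root and 595 FPKM in leaf. Of the 5 CAMTA genes, calmodulin-binding activators, 4 were higher in leaf. All 5 had their highest value of the 9 tissues there, beside 191 of 1288 transcription factor genes. Dlo_031925.1 of this type had 20.2 FPKM in root and 198 FPKM in leaf.

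Of the 10 transcription factor genes with the largest differences towards root, 8 had their highest value in root, but several were also high in fruit tissues. Dlo_001683.1 of the C2H2 type had 78.7 FPKM in root, was listed at 0 in leaf, and reached 3.04 FPKM at most in another tissue. The MYB genes Dlo_023333.1 and Dlo_005512.1 had 114.6 and 60.0 FPKM in root, against 0.42 FPKM and a listed 0 in leaf. Both NAC genes of the set were nearly as high in young fruit as in root. Dlo_033865.1 had 57.3 FPKM in root, was listed at 0 in leaf and had 52.0 FPKM in young fruit, while Dlo_030395.1 had 58.8 FPKM in root, 0.10 FPKM in leaf and 51.4 FPKM in young fruit. The 2 genes not highest in root were a bHLH and a bZIP gene. Dlo_000515.1 (bHLH) had 84.2 FPKM in root, was listed at 0 in leaf and had 191 FPKM in young fruit. Dlo_013259.1 (bZIP) had 60.7 FPKM in root, was listed at 0 in leaf and had 99.2 FPKM in pericarp.

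Among the 10 with the largest differences towards leaf, 8 had their highest value in leaf. Dlo_007513.1, an ERF gene, had 4.11 FPKM in root and 1603 FPKM in leaf, the largest difference of any transcription factor gene (-8.29). The GRAS gene Dlo_024797.1 had 8.56 FPKM in root and 1008 FPKM in leaf. It was lowest in root of all tissues, the next value being 33.6 FPKM. ERF genes Dlo_007316.1 and Dlo_007317.1, which carry consecutive numbers, had 1.07 and 0.52 FPKM in root and 191 and 188 FPKM in leaf. Both were highest in pericarp, at 1109 and 1157 FPKM. Dlo_010316.1 of the MYB type was listed at 0 in root and had 116 FPKM in leaf, and Dlo_021693.1 of the M-type MADS genes was listed at 0 in root and had 66.2 FPKM in leaf. The SBP gene Dlo_022368.1 had 0.45 FPKM in root and 126 FPKM in leaf.

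**Figure D3:**
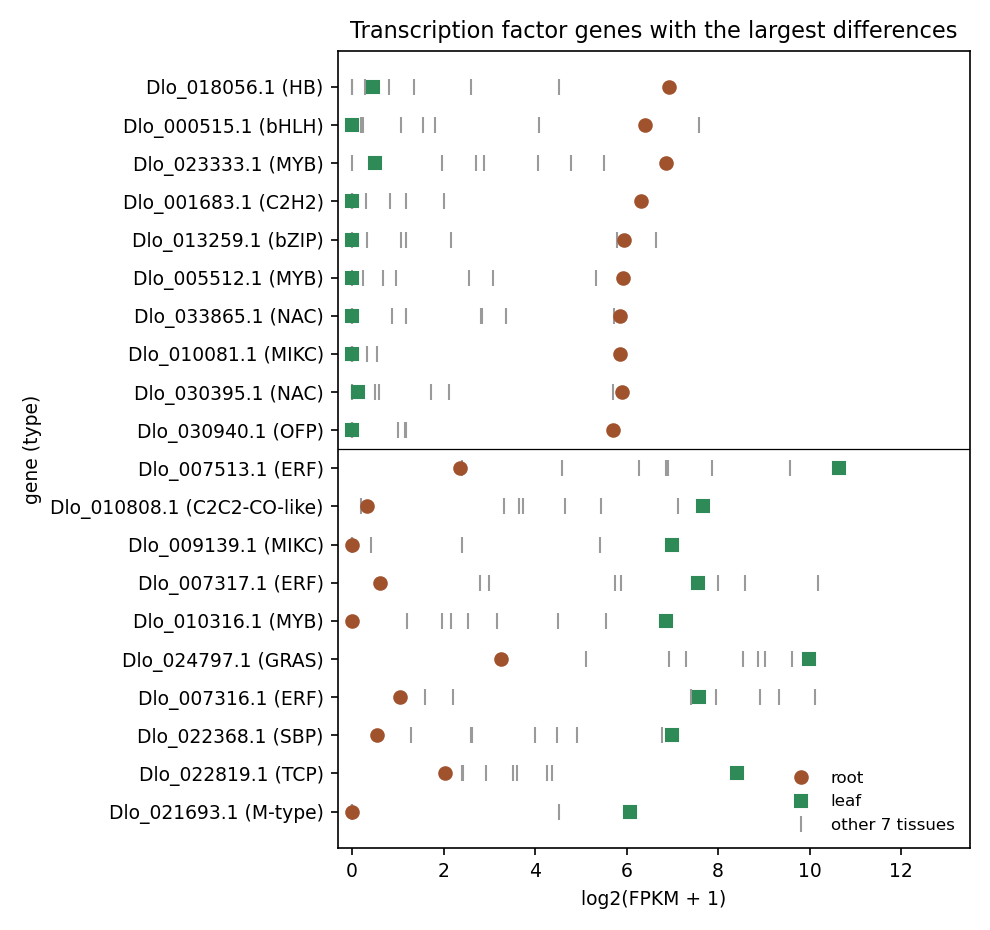
Levels, as log2(FPKM + 1), of the 10 transcription factor genes with the largest difference towards root (upper rows) and the 10 with the largest difference towards leaf (lower rows); circles are root, squares leaf and grey ticks the other 7 tissues. Root circles of the upper rows run over 50.8 to 119.85 FPKM and leaf squares of the lower rows over 66.2 to 1603 FPKM.

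The highest transcription factor genes of each organ showed another picture, since several were high in both. Dlo_018830.1 (ERF) had 947 FPKM in root and 831 FPKM in leaf, and Dlo_003442.1 (HB) had 945 FPKM in root and 655 FPKM in leaf. Both lay within 2-fold. The next in root, the bZIP gene Dlo_000764.1, had 433 FPKM in root and 11.9 FPKM in leaf, and no other tissue exceeded 64.4 FPKM. In leaf the highest were Dlo_016593.1 (RAV), with 166 FPKM in root and 2061 FPKM in leaf, then the ERF gene Dlo_007513.1, then Dlo_001658.1 (WRKY), with 143 FPKM in root and 1487 FPKM in leaf. Other types had members far apart too. ARF genes, the auxin response factors, held Dlo_030332.1 with 70.0 FPKM in root and 3.81 FPKM in leaf, and Dlo_011077.1 with 17.4 FPKM in root and 117 FPKM in leaf. HSF genes, the heat shock factors, held Dlo_018081.1 with 45.1 FPKM in root and 0.11 FPKM in leaf, and Dlo_005638.1 with 19.2 FPKM in root and 157 FPKM in leaf.

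Genes outside the transcription factors were named only from the study's annotation of genes that carry sequence differences between cultivars. Its annotation of other genes was not used. The part used covers 816 genes, so each list below is partial. Of these, 796 were in the table and 717 above 0 in root or leaf. Of the 717, 153 were higher in root (21.3%) and 124 in leaf (17.3%), with a median of 0.01. Lists of function, 14 in number, were made from the domain and pathway names, with 161 genes above 0, of which 36 were higher in root and 35 in leaf. Over all genes of the table the shares were 24.8% in root and 18.2% in leaf. Names given by pathway are by similarity and were not checked further.

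Photosynthesis and chlorophyll genes were higher in leaf or within 2-fold. Of 8 genes, 0 were higher in root and 5 in leaf (median -1.15), or 0 in root and 3 in leaf with 5 FPKM added (median -0.77). After the oxygen-evolving protein gene Dlo_000983.1, the largest difference was that of Dlo_030843.1, annotated as chlorophyll(ide) b reductase, an enzyme of chlorophyll b breakdown, with 3.04 FPKM in root and 28.4 FPKM in leaf. The gene annotated as pheophorbidase, Dlo_026288.1, had 34.0 FPKM in root and 128 FPKM in leaf. Uroporphyrinogen decarboxylase Dlo_016938.1, of the path to haem and chlorophyll, had 3.43 FPKM in root and 8.78 FPKM in leaf, and ferredoxin-dependent glutamate synthase Dlo_017964.1, which assimilates ammonium, 5.96 FPKM in root and 14.6 FPKM in leaf. Protoporphyrinogen oxidase Dlo_023154.3 had 19.6 FPKM in root and 13.2 FPKM in leaf. With the light-harvesting and magnesium chelatase genes above, it made up the 3 that stayed within 2-fold.

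DNA replication and mitosis genes leaned the other way, with 7 of 11 higher in root, 0 in leaf and a median of 1.91. All 11 had more FPKM in root than in leaf. The kinesin gene Dlo_023091.2, coding for a motor protein of microtubules, had 20.9 FPKM in root and 0.81 FPKM in leaf. Dlo_005115.1, a condensin subunit that compacts chromosomes, had 7.06 FPKM in root and 0.09 FPKM in leaf, and Dlo_000018.1, a subunit of replication factor C, 4.62 FPKM in root and 0.33 FPKM in leaf. MCM2, part of the replicative helicase (Dlo_022738.1), had 16.2 FPKM in root and 6.39 FPKM in leaf. Dlo_020120.1, a gene model with both a kinesin and a GDSL lipase domain, had 10.2 FPKM in root and 0.16 FPKM in leaf. Summed, the list stood highest in root and lowest in leaf of the 9 tissues. All values were low, so the median depends on the added constant and was 0.90 with 5 FPKM added.

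The partial list of phenylpropanoid and polyphenol genes had the highest summed level of the lists in root, 2393 FPKM, with 569 FPKM in leaf. A single gene made up 68.0% of the root sum. Of 5 genes above 0, 2 were higher in root and 1 in leaf. Cinnamate 4-hydroxylase, an early step towards lignin and flavonoids (Dlo_002085.1), had 1629 FPKM in root and 54.9 FPKM in leaf, a difference of 4.87. Root was its highest tissue and stem the next, at 368 FPKM. Dlo_025848.1, annotated as dihydroflavonol 4-reductase, which makes precursors of anthocyanins and tannins, had 541 FPKM in root and 30.2 FPKM in leaf. Upstream, DAHP synthase, the entry to the shikimate path (Dlo_025034.1), went the other way, with 178 FPKM in root and 447 FPKM in leaf. Both 4-coumarate-CoA ligase genes were within 2-fold, at 40.6 FPKM in root and 33.6 FPKM in leaf for Dlo_030106.1. The remaining 2 of the 7 genes were listed at 0 in root and leaf.

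Cell wall genes had 4 of 7 higher in root and 2 in leaf, with a median of 1.15. Pectinesterase Dlo_021909.1, which modifies pectin, had 117 FPKM in root and 3.40 FPKM in leaf, but its highest value was 152 FPKM in stem. Dlo_013177.1, annotated as beta-mannan synthase, had 23.9 FPKM in root and 1.67 FPKM in leaf, but 94.7 FPKM in seed. Callose synthase Dlo_010273.1 had 43.1 FPKM in root and 103 FPKM in leaf. A cellulose synthase gene, Dlo_033645.1, had 0.45 FPKM in root and 2.32 FPKM in leaf. With 5 FPKM added the median of the list was 0.79.

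Receptor-like kinases, cell surface proteins that pass signals inward, are grouped here by the domain outside the cell. Of 14 genes with leucine-rich repeats, 6 were higher in root and 1 in leaf (median 0.58), or 4 in root and 0 in leaf with 5 FPKM added. Dlo_020303.1 had 47.2 FPKM in root, 0.18 FPKM in leaf and 46.05 FPKM in seed. Dlo_005235.1 had 55.1 FPKM in root, 0.52 FPKM in leaf and 55.5 FPKM in pulp. Of 12 genes with S-locus or bulb-type lectin domains, 0 were higher in root and 6 in leaf. Dlo_010628.1 had 2.66 FPKM in root and 27.0 FPKM in leaf, and Dlo_009991.1 had 0.24 FPKM in root and 6.19 FPKM in leaf. Their median, -1.09, falls in a gap between the 6 and the rest, and was -0.36 with 5 FPKM added. Genes with an NB-ARC domain, receptors of pathogen proteins inside the cell, had 1 of 23 higher in root and 4 in leaf. With 5 FPKM added, 0 were higher in either organ. Their levels were low, with sums of 30.35 FPKM in root and 59.55 FPKM in leaf, so these counts depend on the added constant. Dlo_001071.1 had 0.04 FPKM in root and 0.39 FPKM in leaf, and Dlo_013896.1 0.53 FPKM in root and 0.12 FPKM in leaf. Both counted as within 2-fold, and no steady level is read from this list.

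Transporters split by gene. Of 17 genes for ions, nitrate and peptides, 4 were higher in root and 6 in leaf. Dlo_012423.1 of the proton-dependent oligopeptide transporter family, which in plants includes nitrate carriers, had 7.13 FPKM in root and 478 FPKM in leaf. A sulphate transporter gene, Dlo_013860.1, had 7.24 FPKM in root and 0.06 FPKM in leaf, and Dlo_021664.1 of the multi antimicrobial extrusion family 30.7 FPKM in root and 1.88 FPKM in leaf. The proton pump gene Dlo_012422.1 had 119 FPKM in root and 29.4 FPKM in leaf. Among 10 ABC transporters 3 were higher in root and 2 in leaf, near the 24.8% and 18.2% of all genes. Their largest difference was that of Dlo_003793.1 of the G subfamily, listed at 0 in root with 50.5 FPKM in leaf.

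Of 11 cytochrome P450 genes, cinnamate 4-hydroxylase among them, 5 were higher in root and 2 in leaf, or 4 in root and 1 in leaf with 5 FPKM added, and Dlo_033112.1 was listed at 0 in root with 12.3 FPKM in leaf. Hormone genes had 4 of 9 higher in root and 2 in leaf, or 3 in root and 1 in leaf with 5 FPKM added. Among these, Dlo_001160.1, annotated as the enzyme that degrades abscisic acid, had 13.6 FPKM in root and 1.64 FPKM in leaf. Starch and sugar genes had 1 of 9 higher in root and 2 in leaf, or 0 in root and 1 in leaf with 5 FPKM added. Among them was glucan, water dikinase, an enzyme that opens starch to breakdown (Dlo_003377.2), with 15.3 FPKM in root and 85.6 FPKM in leaf. Genes of pentatricopeptide repeat and mTERF proteins, which act on chloroplast and mitochondrial transcripts, had 1 of 20 higher in root and 2 in leaf (median -0.56). Their levels were low, with sums of 74.02 FPKM in root and 109.53 FPKM in leaf. Dlo_007326.2, counted among them, is also on the hormone list. With both libraries scaled to the same total without their 10 highest genes, 5 of the 20 were higher in leaf. With 5 FPKM added, 0 of the 20 were higher in root and 1 in leaf. Ribosomal protein genes had 1 of 9 higher in root and 0 in leaf.

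**Figure D4:**
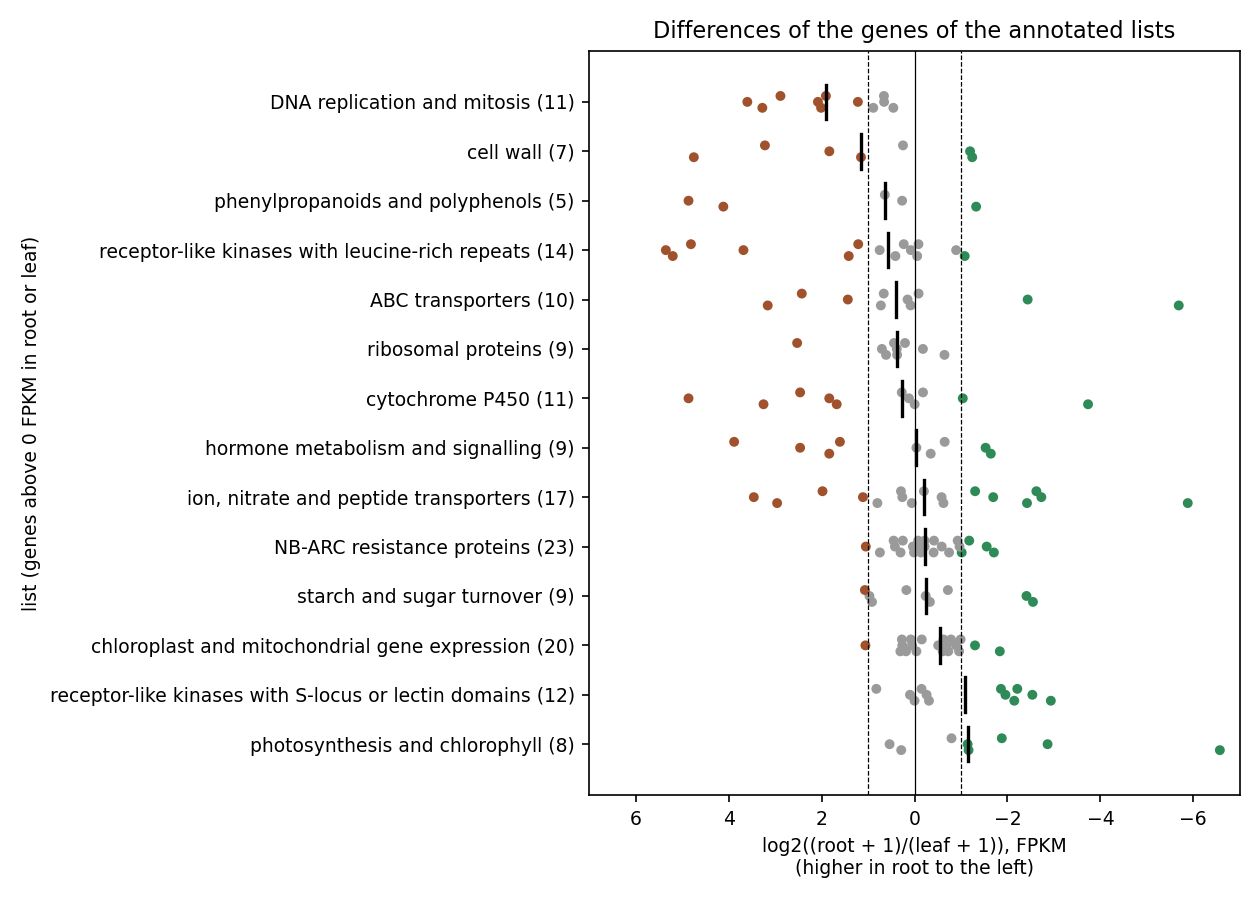
Difference between root and leaf, log2((root + 1)/(leaf + 1)) in FPKM, of each gene of the 14 annotated lists, with higher in root to the left; each point is a gene, black bars are medians, dashed lines the 2-fold limit and brackets give the number of genes above 0 FPKM in root or leaf. DNA replication and mitosis, with a median of 1.91, stands at the root end, and photosynthesis and chlorophyll, with a median of -1.15, at the leaf end.

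Some annotated genes outside these lists had larger differences and were chosen after their values were seen. The expansin gene Dlo_032029.1, coding for a protein that loosens cell walls, had 194 FPKM in root and 0.15 FPKM in leaf. A papain-type cysteine protease gene, Dlo_017782.1, had 132 FPKM in root and 0.11 FPKM in leaf, but 1215 FPKM in seed. Dlo_008064.1, with an ALOG domain, had 159 FPKM in root and 2.36 FPKM in leaf. Towards leaf, the calcium-binding EF-hand gene Dlo_008167.1 had 1.46 FPKM in root and 603 FPKM in leaf. Dlo_018835.1, with a GDSL lipase domain, had 4.68 FPKM in root and 497 FPKM in leaf. Tyrosine aminotransferase Dlo_014672.1 had 3.87 FPKM in root and 429 FPKM in leaf, close to its 454 FPKM in flower bud.

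Across the 9 tissues, about as many of the differing genes were highest elsewhere as in the organ itself. Of the 6021 genes higher in root, 3144 (52.2%) had their highest value in root, 685 in pulp and 632 in seed. Of the 4402 genes higher in leaf, 1985 (45.1%) had their highest value in leaf, 705 in young fruit and 512 in pericarp. Over all 24244 genes, 4798 were highest in root and 3701 in leaf. A gene higher in one organ cannot be highest in the other, so the choice of genes itself raises these shares. Among transcription factor genes, 217 of the 429 higher in root (50.6%) were highest in root, and 133 of the 294 higher in leaf (45.2%) were highest in leaf. Over all 1288 transcription factor genes, 288 were highest in root and 191 in leaf.

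**Figure D5:**
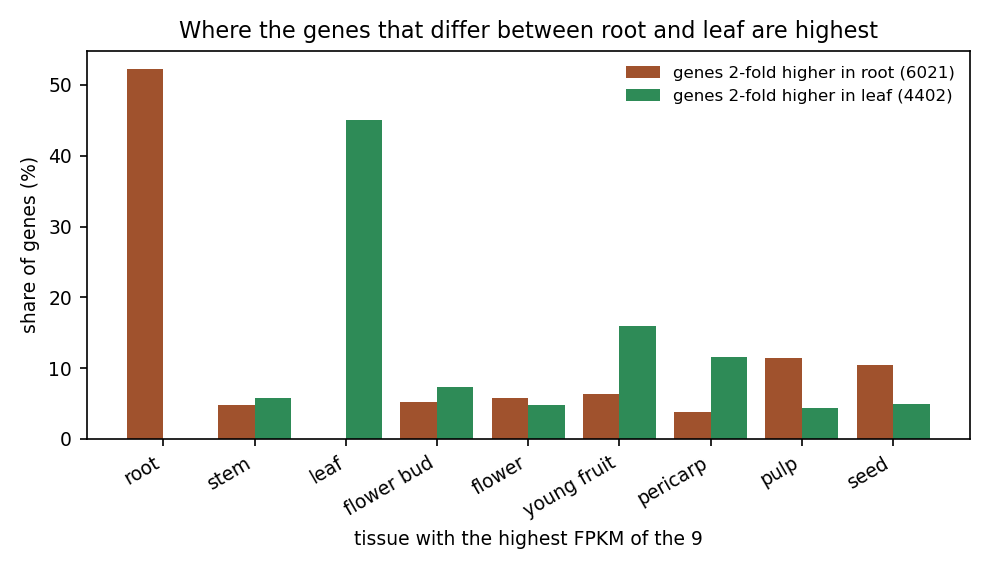
Share (%) of the 6021 genes higher in root and of the 4402 genes higher in leaf that had their highest FPKM in each of the 9 tissues. Root takes 52.2% of the root set, followed by pulp, and leaf takes 45.1% of the leaf set, followed by young fruit.

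Transcription factor genes of the same type that carry consecutive numbers were also compared as pairs. Of 55 such pairs with both genes above 0, 13 had both genes higher in root, 8 had both higher in leaf, and 2 had them in opposite directions. In the other 32 pairs, 1 or both genes were within 2-fold. Pairs without consecutive numbers were not counted, so agreement beyond that of other pairs was not tested. A gene in a run of numbers can stand in 2 pairs. Some of these genes share their values with another gene. Over the whole table, exactly 817 genes above 0 in root or leaf carried the same 9 values as another gene, with at least 1 FPKM in a tissue, and 28 of them were transcription factor genes. The ERF genes Dlo_031619.1 and Dlo_031620.1, for example, both had 40.66 FPKM in root and 7.09 FPKM in leaf, and how their reads were divided is uncertain. With 1 gene kept for each such set, an alternative added after seeing the data, 5871 genes were higher in root and 4340 in leaf. Transcription factor genes then numbered 421 higher in root and 287 in leaf.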

How the data were processed

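RNA from 9 longan tissues was sequenced, with 1 library per tissue, of which root and leaf were compared here and the other 7 only placed them. The authors removed adaptors, low-quality reads and organelle and ribosomal reads, aligned the rest with TopHat2 2.0.10 (per the submitters' processing notes) to the genome of another cultivar, and deposited FPKM values with 2 decimals. The tool that computed FPKM is not given in the sources used here. FPKM are not counts, so no count model and no interval were used.

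Columns were assigned by name. Differences were log2((root + 1)/(leaf + 1)), and a gene above 0 FPKM in root or leaf counted as higher at a size of 1 or more. No test was made. Relative depth was the commonest ratio of root over leaf (within a window of 0.03 on the log2 scale) among genes under 2 FPKM in every tissue and above 0.2 FPKM in both organs. Types are the study's list of transcription factors. Lists came from patterns in the domain and pathway names of its annotated genes with sequence differences between cultivars. Gene names in either case were read, and were matched to the expression table as written. Types with at least 10 genes were described.

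Named by rule were the 10 transcription factor genes with the largest difference in each direction, the extreme member of each described type in each direction, all photosynthesis genes, the 2 extreme members of every other list in each direction, the 3 highest transcription factor genes of each organ, the 2 most extreme genes of the table in each direction, and the LFY, YABBY and GRF genes. Other names are list members shown for their role, or marked as chosen later. Members, lists and rules were chosen with earlier results of these data known. The counting was tested on simulated 4-fold changes in genes with at least 10 FPKM in leaf. That check does not cover genes of lower level or smaller changes. Alternatives were other added constants, filters, a 4-fold limit and 2 rescalings. Computations used Python, numpy, pandas and matplotlib.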

Additional observations from a re-analysis of the deposited data

How the results depend on the processing

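Scalings and filters on low FPKM kept the counts over all genes, all transcription factor genes and all list genes within 1.5 times, as did keeping 1 gene per set of identical values, which was added after seeing the data. The added constant and the limit did not. With 5 FPKM added, 6886 genes differed, 4011 higher in root and 2875 in leaf, and 46 list genes differed, 20 of them higher in leaf. Higher in root were then 272 transcription factor genes, and in leaf 236, the latter still within 1.5 times. Of the differing genes, 53.5% of transcription factor genes and 58.2% of all genes were then higher in root. With 1 FPKM added these shares were 59.3% and 57.8%, so the order of the 2 depends on the constant. With a 4-fold limit, 5161 genes differed (3334 higher in root, 1827 in leaf), 399 transcription factor genes (250 higher in root, 149 in leaf) and 36 list genes (21 higher in root, 15 in leaf). Of 129 counts of types and lists, 49 moved by over 1.5 times with 5 FPKM added, 87 at the 4-fold limit and 18 with a filter of 5 FPKM. No named gene at the 2-fold limit turned its direction. Of 43 medians of types and lists, 11 changed sign under some alternative. They were those of C2C2-GATA, C2H2, ERF, FAR1, M-type, NAC, Orphans, Trihelix, bZIP and zf-HD and of the hormone list. No direction is read from these medians. No paired analysis was possible because root and leaf had a single library each, which also left no replicate to leave out. Genes under about 1 FPKM rest on few reads, and a listed 0 does not show absence.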
